A study of Drosophila melanogaster with 23 samples.

Results

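This account concerns start sites that lie beside a gene promoter but were linked to no gene. RAMPAGE sequences the 5′ ends of capped RNA, and neighboring start sites are grouped into transcription start site clusters (TSCs), each taken as a promoter. A TSC was a member here if its name in the deposited list carries no FlyBase gene identifier, if it lies on a chromosome arm and not on an unplaced or heterochromatic scaffold, and if the gap to the nearest gene-assigned TSC, on either strand, is at most 500 bp. These rules used positions and names only, and no expression value. The members number 1041, which are 33.5% of the 3110 gene-less TSCs on the arms, out of 24730 TSC names in all. The nearest gene TSC is called the neighbor. By strand, 975 lie on the strand opposite to the neighbor and 66 on the same strand.

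Promoters of many animals are transcribed in both directions, and the RNA made upstream of a gene on the other strand is often short-lived. Transcripts that start within a gene on its other strand are called antisense, and start sites on the gene's own strand can be alternative promoters of it. In flies, closely spaced promoters on opposite strands are common because the genome is compact. The members described below include such partners for which no annotated gene was found, beside members in other positions.

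The samples were whole Drosophila melanogaster embryos of the strain y; cn bw sp, collected from population cages in 23 consecutive 1-hour windows from 0-1 h to 22-23 h after egg laying. Each window holds pooled embryos and is represented by 1 library, all of biological replicate series 2, with no treatment and no other genotype. Barcoded samples had been processed together and sequenced in a single lane. There are no replicate libraries, so the error of a time course is the scatter of the windows around a smooth curve. Because whole embryos hold every cell type, fewer cells using a start site and less RNA per cell cannot be told apart. The shallowest library, 5-6 h, held 286206 reads, the deepest, 1-2 h, held 14705005, and the median library 2664024. A member with no read in a window may therefore be as high as 10.5 RPM (reads scaled to a fixed total of reads in TSCs) at 5-6 h but only 0.204 RPM at 1-2 h, taking 3 reads as the limit that a count of 0 allows. Stage markers had their maxima in turn, pgc of the pole cells at 0-1 h, the pair-rule gene ftz at 3-4 h, the segment polarity gene en at 6-7 h and the cuticle gene Cpr47Eg at 21-22 h.

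The first question was where the members sit. Of the 975 opposite-strand members, 502 lie upstream of the neighbor, so that the pair points outward from a shared region, 93 overlap it and 380 lie downstream, inside or beyond the start of the gene. The median gap was 127.5 bp upstream and 230 bp downstream. Upstream members crowd toward the gene. The 50 bp next to the neighbor hold 109 of them (21.7%) and the next 50 bp hold 97 (19.3%), whereas 24 (4.78%) lie from 300 bp to under 350 bp. Downstream members are spread more evenly, with 27 (7.11%) in the nearest 50 bp and between 40 and 53 in each 50 bp from 100 bp to under 400 bp. Of 3183 gene TSCs upstream of a gene TSC of the other strand, 33.7% lie in the nearest 50 bp and 11.6% in the next, with a median gap of 153 bp.

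The 66 same-strand members are divided about evenly, with 32 upstream and 34 downstream of the neighbor. Their gaps began at 155 bp and had a median of 313.5 bp. Gene TSCs whose nearest gene TSC is on their own strand had no gap below 137 bp either. The strands were therefore compared beyond the empty interval, and from 155 bp on 487 of 553 members (88.1%) face the other strand, against 1774 of 5645 gene TSCs (31.4%). The authors used paired reads to assign TSCs to annotated genes. A TSC on a gene's own strand can take that gene's name in this way, and is then no member. The part of this naming in the strand shares of members and of gene TSCs was not tested. With the limit moved to 1000 bp, the share on the opposite strand was 80.6% at gaps of 401 to 500 bp and 62.0% at 901 to 1000 bp. At the limit itself little changes. The 47 opposite-strand members with gaps of 451 to 500 bp had a median of 35 reads, and the 42 TSCs at 501 to 550 bp had a median of 28, while on the same strand 11 members had a median of 30 and 6 TSCs just outside had 26.5.

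**Figure D1:**
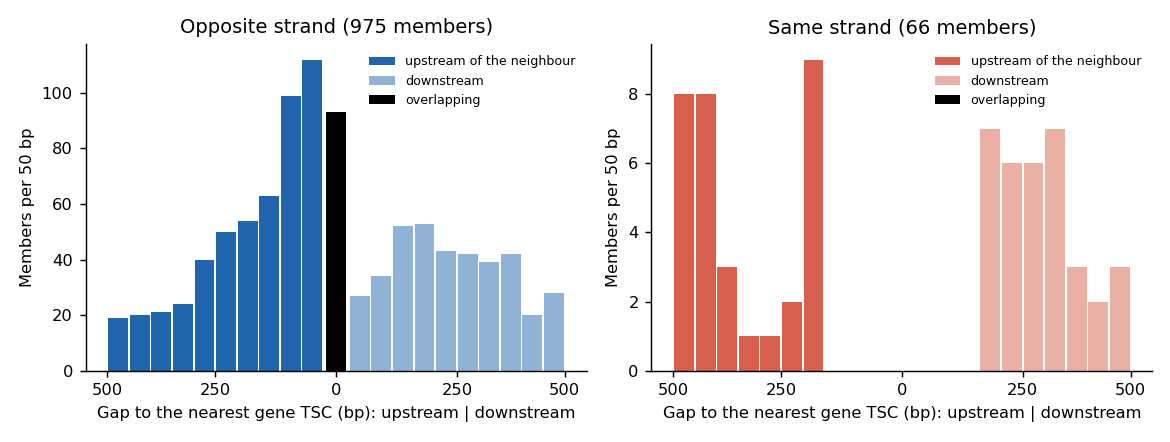
Members by the gap to the nearest gene TSC, in bp, counted per 50 bp, for the opposite strand (975 members) and the same strand (66 members). Bars left of 0 are upstream of the neighbor in its direction of transcription, paler bars are downstream and the black bar counts overlapping clusters. Upstream members on the opposite strand pile up next to the neighbor, and the same-strand panel is empty below 155 bp.

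Members are narrow and weak. Opposite-strand members had a median width of 19 bp and 34 reads over all 23 libraries (quartiles 19 and 75, highest 4509), and same-strand members 14 bp and 26 reads (quartiles 18 and 45, highest 264). Gene TSCs had a median width of 55 bp and 275 reads. The 2069 other gene-less TSCs of the arms resembled the members in this, with a median of 14 bp and 26 reads. Reads in all 23 windows were found for 10 opposite-strand members and for no same-strand member. At the other end, 10 opposite-strand members drew every read from a single library, among them 142 reads beside CG2962 within a cluster of 1 bp and 43 reads beside CycA at 1-2 h. At least 80% of the reads came from 1 library in 23 of 975 opposite-strand members (2.36%), in none of the 66 same-strand members and in 26 of 20345 gene TSCs (0.128%). Among the other gene-less TSCs this held for 22 of 2069 (1.06%), and 6 of these TSCs drew every read from a single library. With 12 to under 50 reads it held for 3.31% of 635 opposite-strand members, 1.15% of 1482 other gene-less TSCs and 0.461% of 4993 gene TSCs. How duplicate reads were treated is not given in the sources used here, and its part in these values was not tested.

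The neighbors were mostly much stronger. The neighbor of an opposite-strand member had a median of 725 reads and the median member gave 0.0643 of its neighbor's summed RPM, with 545 members (55.9%) under 10% and 236 (24.2%) under 1%. For same-strand members the neighbor had a median of 115.5 reads and the median ratio was 0.234. A member exceeded its neighbor in 153 opposite-strand pairs and in 12 same-strand pairs. These were seldom the main promoter of a gene: the neighbor was the strongest TSC of its gene in 17 of those 153 pairs, against 421 of the 822 pairs in which the member was weaker. Member reads did not scale with neighbor reads. Over the 975 opposite-strand pairs the Pearson correlation of log10 reads was 0.018 and Spearman's rho -0.00095, given as a description since all pairs share the same libraries. Upstream members beside neighbors of under 100 reads had a median of 38 reads, and those beside neighbors of at least 10000 reads had a median of 36. Upstream gene TSCs on the opposite strand did not climb either, with medians of 1281.5 and 945 reads in these classes. Overlapping gene TSCs fell from 2106 to 642.5 reads and downstream ones from 714.5 to 34. The fewest reads of any member were 12, and the part of this floor in the flat relation was not tested. Overlapping members varied without order, with medians of 40 (n = 12), 53 (n = 33), 32.5 (n = 36) and 102.5 reads (n = 12) from the weakest to the strongest class of neighbors, and a Spearman rho of 0.087 over all 93.

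**Figure D2:**
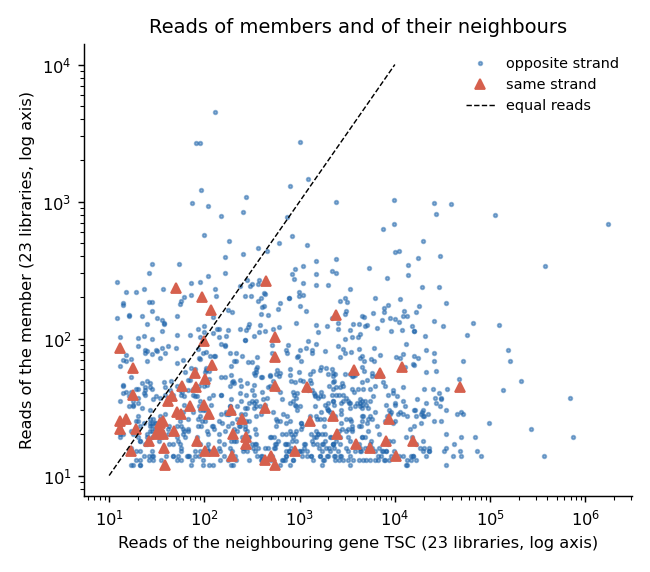
Reads of each member against reads of its neighboring gene TSC, summed over 23 libraries, on log axes. Blue points are the 975 opposite-strand members, red triangles the 66 same-strand members, and the dashed line marks equal reads. Most points lie below the line, and the cloud of opposite-strand members has its quartiles at 19 and 75 reads and does not climb with neighbor reads.

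Summed over all members, the opposite-strand class took a small share of each library. It was lowest at 17-18 h with 0.0788% of reads (95% Wilson interval 0.0768 to 0.0808) and highest at 22-23 h with 0.168% (0.155 to 0.181). The intervals cover counting error only. Without the 10 strongest members the highest share was at 7-8 h with 0.134% and the lowest at 0-1 h with 0.0606%. The neighbors of these members took from 5.83% at 12-13 h to 24.9% at 21-22 h. At 21-22 h the CG30457 TSC alone held 91133 of their 224189 reads. Upstream members were lowest at 0-1 h (0.0374%) and highest at 7-8 h (0.0932%), and downstream members highest at 2-3 h (0.0576%). Same-strand members took between 0.00149% at 0-1 h and 0.00699% at 5-6 h, the latter on 20 reads.

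Whether a member follows its gene through development was asked in 3 ways, each over pairs in which both TSCs had at least 50 reads. That left 296 opposite-strand and 14 same-strand pairs, while 679 and 52 members had too few reads for a comparison of profiles. The first measure is Pearson's r over the 23 windows between the log2(RPM + 1) of a member and that of its neighbor. Opposite-strand members had a median r of 0.43 (quartiles 0.12 and 0.64), with r above 0.5 in 127 pairs and below 0 in 46. Same-strand members had a median of 0.38 (quartiles -0.07 and 0.41), with 3 of 14 above 0.5. For gene TSCs the medians were 0.38 over 3255 opposite-strand pairs and 0.54 over 2358 same-strand pairs. Gene TSCs that are each other's nearest gene TSC enter these gene pairs from both sides.

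The value of r rose with depth, so pairs were also set side by side by the reads of the weaker TSC. With at least 50 and under 100 reads the median was 0.38 over 145 opposite-strand members and 0.32 over 515 opposite-strand gene pairs. With at least 200 and under 500 reads it was 0.56 over 44 members and 0.36 over 646 gene pairs. At 500 reads or more it was 0.57 over 15 members and 0.44 over 1644 gene pairs. In each class the median of the members lay above that of the gene pairs, and the quartiles overlapped. By position, the median was 0.45 upstream (14 of 151 pairs below 0), 0.49 overlapping (8 of 39) and 0.39 downstream (24 of 106).

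**Figure D3:**
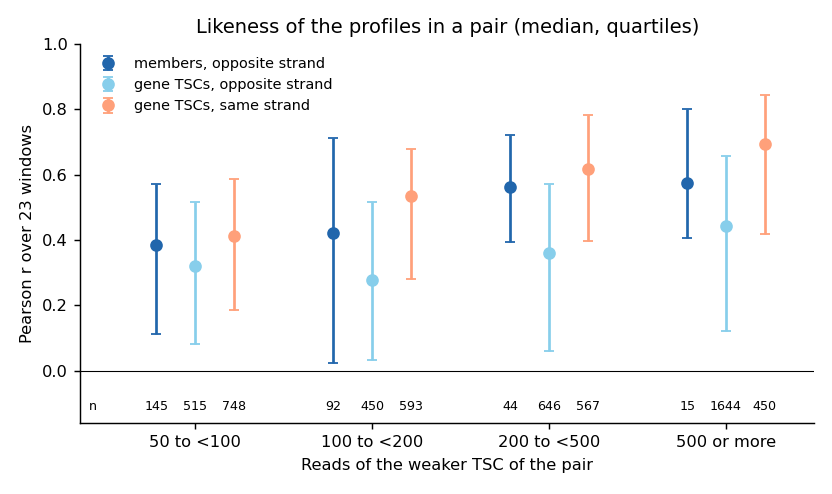
Pearson r over 23 windows between a TSC and its nearest gene TSC, by the reads of the weaker TSC. Points are medians, bars run from the lower to the upper quartile and the numbers give the pairs: members on the opposite strand (dark blue), gene TSCs on the opposite strand (pale blue) and gene TSCs on the same strand (orange). The members' medians rise from 0.38 to 0.57 with reads and lie between those of the gene classes.

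The second measure is the mean hour, which is the window midpoint averaged with RPM as the weight. Opposite-strand members differed from their neighbor by a median of 0.05 h (quartiles -1.73 and 1.56), and 164 of 296 lay within 2 h of it. There were 28 members later than their neighbor by 4 h or more and 23 that were earlier by as much. The spread of gene pairs on opposite strands was similar, with 51.6% of 3255 within 2 h against 55.4% of members. Of the 14 same-strand pairs only 2 lay within 2 h, with a median of -2.80 h (quartiles -4.52 and 2.22) and 4 members earlier by at least 4 h. Opposite-strand members with at least 50 reads had mean hours of 8 to 12 h in 119 of 340 and of 4 to 8 h in 88, while 15 had a mean hour before 4 h. A middle mean hour need not be a middle maximum, since the Rpt3 member, highest at 0-1 h, had 9.86 h. At any read count the median was 10.3 h (quartiles 7.27 and 14.4) for the 975 opposite-strand members. For opposite-strand gene TSCs it was 9.02 h (quartiles 7.65 and 10.7).

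The third measure tests the difference. The member's share of the reads of its pair was fitted on a smooth curve of time, and a pair was called when the curve beat a constant share at an adjusted p below 0.05 (Benjamini-Hochberg over all 5912 pairs tested, gene pairs included). Depth cancels in such a share. Gene TSCs nearest to each other enter the 5912 pairs from both sides, so such gene pairs are repeated in the adjustment and in the background. The share changed in 127 of 293 opposite-strand pairs (43.3%), and 3 further pairs could not be fitted. It changed in 7 of 14 same-strand pairs (50%). The background was 50.8% of all pairs, 59.9% of opposite-strand gene pairs and 39.2% of same-strand gene pairs, and the members' shares of calls lay within that range, with no test made between the classes. The gap to gene pairs on the opposite strand was smaller at matched reads, with 36.6% against 40.0% at 50 to under 100 reads and 47.8% against 57.8% at 100 to under 200 reads. By position, 68 of 149 upstream, 13 of 39 overlapping and 46 of 105 downstream members were called.

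Among the 127 called members, 71 reached their highest share after their lowest and 56 before it. The fitted share was highest before 8 h in 59, between 8 and 16 h in 23 and after 16 h in 45. In 62 pairs the fitted curve crossed 50%, which need not show in the reads of a window. Beside CG15022, for example, the fitted share was highest at 22-23 h with 89.7%, where the member had 0 reads and its neighbor 4. Of the calls, 76 of the 127, and 5 of the 7 same-strand calls, held in every one of the 23 fits that left out a library. For opposite-strand gene pairs this was 1463 of 1946. A pair could also drop out of such a fit by falling under 50 reads. Leaving out 1-2 h, the deepest library, gave 98 calls among 258 pairs (38.0%).

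**Figure D4:**
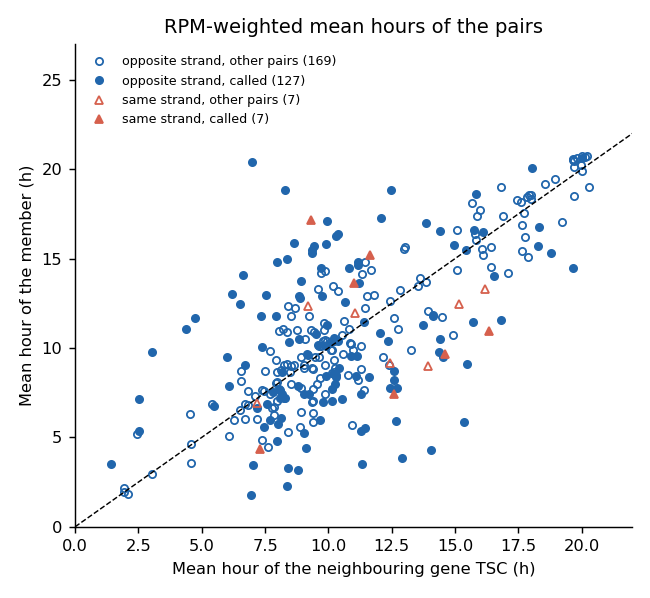
RPM-weighted mean hour of each member against that of its neighbor, in hours after egg laying, for pairs with at least 50 reads in both TSCs. Circles are opposite-strand and triangles same-strand pairs, filled where the share of pair reads changed over time (127 and 7) and open for the other pairs, and the dashed line marks equal hours. Of the 296 opposite-strand pairs 164 lie within 2 h of the line, with others on both sides of it, and of the 14 same-strand pairs 2 do.

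The strongest member lies opposite CG13731 (release 5 assembly, 3L:17378527-17378770, plus strand), 417 bp upstream of a CG13731 TSC that holds 3.20% of that gene's reads. The member had 4509 reads and ranged from 0 RPM to 363 RPM at 19-20 h (exact 95% Poisson interval 322 to 408, counting error only), with a median of 0.751 over the windows. Its neighbor, with 129 reads, ranged from 0 to 11.5 RPM with a median of 0. Both were nearly silent before 14 h and high from 18 h on, with r of 0.87. The share of the pair did not pass the test (adjusted p = 0.0758), but did without 17-18 h (0.0482) and with limma on the log2 ratio (adjusted p = 4.99e-06). That alternative takes a window without reads in either TSC as an equal share. On simulated pairs it called 161 of 5723 unchanged pairs, against 1 in the test used here. This limit holds for its other values below. A second member lies 54 bp downstream of the same gene TSC on the same strand as the first (3L:17377935-17378038), with 230 reads, 55.2 RPM at most and r of 0.92. Its share was called (adjusted p = 0.00685), but not without the library of 18-19 h, 20-21 h, 21-22 h or 22-23 h, where p reached 0.132. CG13705 has a member of the same kind (3L:4897611-4898175), 565 bp wide and overlapping a TSC with 0.566% of the gene's reads. That member ran from 0 to 197 RPM, the highest at 22-23 h on 75 reads, beside a neighbor of 11.5 RPM at most, with r of 0.90 and no call (adjusted p = 0.861, or 0.000754 with limma on the log2 ratio).

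CG18754 shows the pattern in mid-embryogenesis. Its member (3R:19510418-19510511, minus strand), 337 bp upstream, had 2661 reads against 81 of the neighbor. It ranged from 0 to 187 RPM at 9-10 h with a median of 2.39, and the neighbor from 0 to 14.0 RPM at 5-6 h with a median of 0. That maximum of the neighbor rests on 4 reads in the shallowest library, and at 9-10 h the neighbor had 7.28 RPM on 30 reads. The member held at least 95.6 RPM in each of the 5 windows from 6 to 11 h and at most 50.2 RPM in any other, with r of 0.78 and mean hours of 8.70 and 7.50 h, and the share was not called (adjusted p = 0.710, or 0.0112 with limma on the log2 ratio). FBgn0086899 has a member 106 bp upstream (X:3673736-3673870) with 1462 reads against 1210. It ranged from 2.18 to 53.3 RPM (median 15.9) and its neighbor from 0 to 27.1 RPM (median 11.4). Both fell away late, with r of 0.76, and the share was not called (adjusted p = 0.0943), but it was without 6-7 h, 16-17 h or 22-23 h, where p reached 0.0262.

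The member in whd, which encodes a carnitine palmitoyltransferase of fatty acid oxidation, lies 378 bp downstream of the gene TSC (2R:6365445-6365670, plus strand). It had 2730 reads and ranged from 5.86 to 89.4 RPM at 2-3 h (median 16.5), and the neighbor had 1001 reads and ranged from 2.22 to 27.4 RPM at 10-11 h (median 10.5). The first 3 windows stood apart, with 71.0 to 89.4 RPM in the member and 9.20 to 19.6 RPM in the gene TSC. The gene TSC was the higher in each window from 5 to 11 h. From 11 h on the member was at or above it again, with 15.6 against 6.17 RPM at 18-19 h on 106 and 42 reads. The fitted share fell from 92.0% at 0-1 h to 35.2% at 7-8 h (adjusted p = 1.32e-06), and r was 0.25. CG3919 has a member 270 bp downstream (3L:14403982-14404107) that ranged from 0.726 to 38.6 RPM (median 7.29), and the gene TSC ranged from 1.49 to 20.5 RPM (median 8.45). Both were highest at 0-1 h, with r of 0.78. The member's fitted share went from 71.5% at 0-1 h to 13.6% at 22-23 h (adjusted p = 0.00457), a call lost with limma on the log2 ratio (adjusted p = 0.0872). Rpt3, an ATPase subunit of the proteasome's regulatory particle, has a member that overlaps its TSC by 3 bp (X:11018623-11018795). On the member's own strand the next gene TSC lies 315 bp downstream. The member was present in every window, from 8.40 to 64.5 RPM (median 23.5). Its neighbor of 0 to 7.88 RPM (the highest on 3 reads) holds 3.53% of the Rpt3 reads. No change in share was called (adjusted p = 0.615).

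The member in sws, which encodes a phospholipase needed in neurons, had the lowest r of the 59 opposite-strand pairs with 200 reads in each TSC, at -0.05. It lies 73 bp downstream of the gene TSC (X:7853341-7853425, plus strand) and ranged from 0 to 20.2 RPM at 14-15 h (median 2.63), whereas the gene TSC ranged from 0 to 34.1 RPM at 1-2 h (median 5.86). In the first 3 windows the gene TSC gave 21.2 to 34.1 RPM and the member 0 to 0.136 RPM. The mean hours were 12.5 h for the member and 6.49 h for the neighbor, and the fitted share rose from 0.199% at 0-1 h to 60.4% at 16-17 h (adjusted p = 4.26e-08), in all 23 fits without a library. Ugt37C1, a UDP-glycosyltransferase gene, has a member 439 bp upstream (2R:12732993-12733147, plus strand) that ranged from 0 to 55.6 RPM at 14-15 h (median 7.77), beside a gene TSC of 0 to 35.5 RPM at 21-22 h (median 0.243). The member was high from 10 to 17 h, when the gene TSC gave between 0 and 13.7 RPM, and the gene TSC was the higher from 19 h on. The fitted share went from 99.9% at 5-6 h to 12.4% at 22-23 h (adjusted p = 0.000147). The high value is the limit set in the fit, in a window with 1 read of the member and 0 of the gene TSC.

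The change in share beside CG15022 rested on single libraries. The member (3L:4460697-4460810) had 430 reads and peaked at 21.3 RPM at 18-19 h, against 586 RPM at 16-17 h for the neighbor, and its adjusted p of 0.0028 rose to 0.993 without the library of 8-9 h. The call was also lost without 1-2 h, 11-12 h or 20-21 h. At the other end, the member in CG30457 faced the most abundant neighbor of all, with 683 against 1710012 reads. It lies 293 bp downstream (2R:13047758-13047935) and ran from 0 to 81.4 RPM at 22-23 h (median 0.405), while the neighbor ran from 2.54 to 101137 RPM (median 323). Both were at their highest in the last 6 windows, with r of 0.91 and adjusted p = 0.940 for the share (0.0306 with limma on the log2 ratio). CG5326 had the highest r of the 59 pairs, 0.91, between an overlapping member of at most 10.3 RPM and a gene TSC of at most 1692 RPM, both highest at 18-19 h, and its share was called with limma on the log2 ratio (adjusted p = 0.00463) but not in the test used here (0.914). The germline gene ovo had r of 0.91 too. Its member (X:4957874-4957916), 94 bp downstream, reached 16.6 RPM at 0-1 h against 16.5 RPM for the gene TSC, with medians of 0 and 0.145 RPM and mean hours of 1.84 and 2.08 h.

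**Figure D5:**
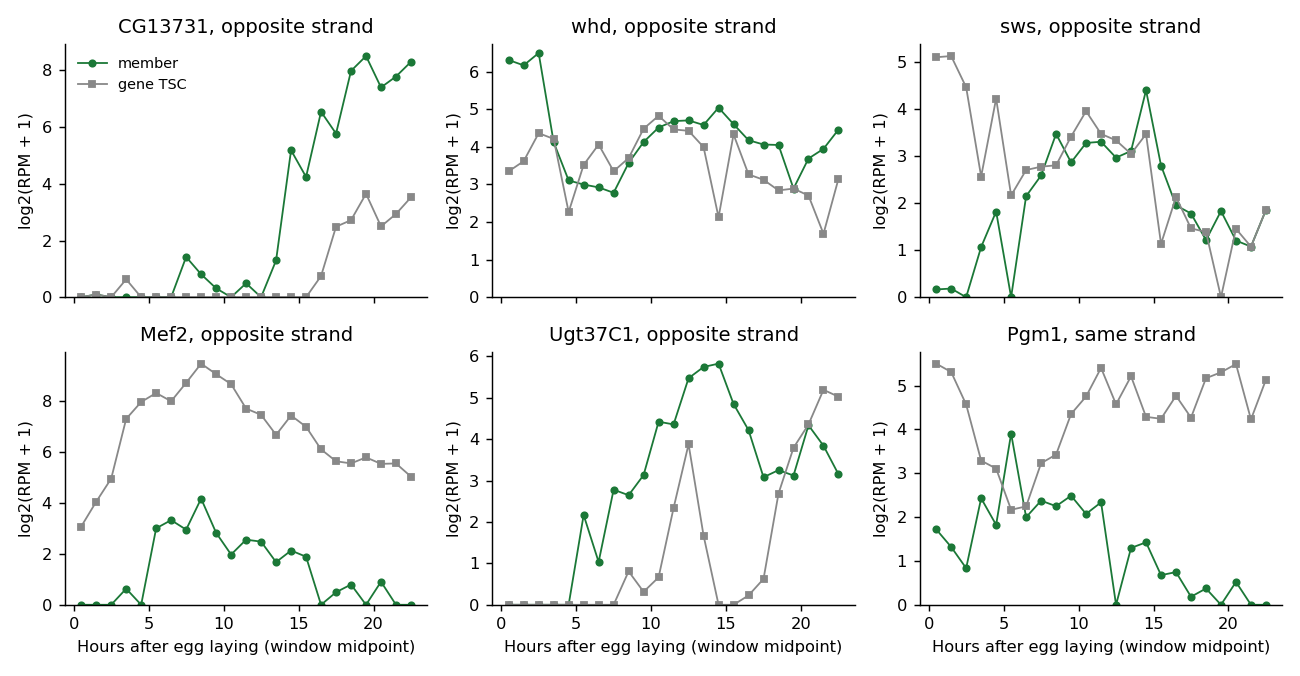
Profiles of 6 members (green circles) and their neighboring gene TSCs (gray squares) as log2(RPM + 1) against hours after egg laying, 1 library per window. In CG13731 and Mef2 the shapes run together (r of 0.87 and 0.81). In whd and sws they part in the first 3 windows, and in whd the member is at or above the gene TSC from 11 h on. In Ugt37C1 the stronger strand changes late, and in Pgm1 the curves come closest in the windows from 3 to 9 h.

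The neighbors were also sorted by function. The mesoderm and muscle list had the most members, 15 on the opposite strand beside 7 of its 14 genes, of which 8 lay upstream. Mef2 has 14 TSCs, where the median opposite-strand member lies beside a gene of 3, and the part of this in the count was not tested. For the 7 of these 15 members with enough reads, which lie beside 4 genes, the median r was 0.81 (range 0.46 to 0.91). Of the 7, 1 changed its share. Over all 296 pairs the median r was 0.43, and 43.3% of opposite-strand members were called. The 7 were not matched to other pairs by reads, with which r rose. Mef2, a transcription factor of muscle formation, had 5 members. The strongest (2R:5817587-5817625, plus strand), 270 bp upstream of the main Mef2 TSC, ranged from 0 to 16.9 RPM (median 0.871) and its neighbor from 7.38 to 699 RPM (median 125). Both were highest at 8-9 h, with mean hours of 9.49 and 9.62 h, r of 0.81 and adjusted p = 0.398. Another Mef2 member overlaps a TSC of 100 reads with r of 0.81. The called one, 54 bp upstream of a TSC of 51 reads, had 66 reads, r of 0.46 and a mean hour of 11.6 against 16.8 h (adjusted p = 0.0129). A weaker one, with 29 reads, had r of 0.13 and a mean hour of 14.7 h beside the main TSC. The muscle actin gene Act57B had 4 members. The strongest (2R:16832604-16832705, minus strand), 45 bp upstream of a TSC with 11.2% of the gene's reads, ranged from 0 to 65.7 RPM at 22-23 h (median 5.27), the neighbor from 1.56 to 958 RPM (median 119), with r of 0.91 and adjusted p = 0.686. An Act57B member of 49 reads, 212 bp upstream of the strongest TSC, had r of -0.12 and a mean hour of 9.19 against 17.8 h. Upstream members of Act87E and of Mhc, the muscle myosin heavy chain gene, had r of 0.81 and 0.80 on 120 and 126 reads. Actin genes are close copies of each other, and how reads that fit several places were counted is not given in the sources used here.

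Cell cycle genes had 7 opposite-strand members, 4 of them in CycE, the cyclin of S-phase entry, a gene with 11 TSCs. The strongest (2L:15747636-15747744, plus strand) lies 22 bp upstream of a minor CycE TSC with 0.419% of the gene's reads. This member ranged from 0 to 11.4 RPM (median 1.68, the highest on 9 reads) and the gene TSC from 0 to 7.02 RPM (median 0). The member's mean hour of 5.34 h came after the 2.54 h of the neighbor (adjusted p = 0.00156). A member 62 bp downstream of a stronger CycE TSC was highest at 0-1 h like its neighbor, with r of 0.82 and adjusted p = 0.447. Homeotic genes, which set segment identity, had 4 members. The one 353 bp upstream of an Antp TSC (3R:2825343-2825363, plus strand) ranged from 0 to 29.6 RPM (median 2.91) and the gene TSC from 0.605 to 31.8 RPM (median 12.6). Both were highest at 3-4 h, and then the gene TSC stayed up for longer, with mean hours of 7.03 and 10.1 h and adjusted p = 0.000171. A Ubx member 288 bp downstream of a weak Ubx TSC had 70 reads and was earlier as well, at 5.88 against 15.4 h (adjusted p = 2.2e-05).

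Zygotic patterning factors had 7 members, beside dpp (2), hkb, odd, rho, brk and ush, and 6 of the 7 lie upstream. All were weak, with 15 to 43 reads, so none entered the test. The hkb member was highest at 2-3 h with 8.62 RPM on 11 reads. Epidermis and cuticle genes had 5 members, with 2 beside the same weak TSC of grh, a transcription factor of the epidermis. Those members had 348 and 184 reads and the TSC 28, which is too few for the test. The first lies 8 bp upstream (2R:13688551-13688620) and ranged from 0 to 17.5 RPM (median 2.99, the highest on 5 reads). The second, 300 bp downstream, was highest at 3-4 h with 28.0 RPM on 51 reads. A member 318 bp upstream of vvl, which encodes a POU-domain transcription factor, had r of 0.74. Growth and translation genes had 7 members, of which 2 could be tested. These had r of -0.31 (RpL4, 204 reads, 87 of them at 8-9 h) and -0.12 (RpS3, 147 reads beside 12075), and neither showed time dependence (adjusted p = 0.407 and 0.747) nor a change in share. The Notch and neural list had 1 member, beside ac, with 17 reads, and the maternal list had none.

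The same-strand class is small and shallow, so each testable pair is described by itself where it was named. The member 380 bp upstream of Pgm1 (3L:16122082-16122139, minus strand), a phosphoglucomutase gene of sugar metabolism, had 148 reads and ranged from 0 to 14.0 RPM (median 1.5, the highest on 4 reads). The Pgm1 TSC had 2389 reads and ranged from 3.49 to 44.3 RPM (median 22.7). The gene TSC was low from 3 to 9 h, when the member had its largest share, 44.6% at 6-7 h against 0.121% at 22-23 h, with r of -0.58 and adjusted p = 1.13e-06. Ltn1, which encodes a ubiquitin ligase of ribosome quality control, has a member 164 bp upstream (3L:19549760-19549812) that ranged from 0 to 13.3 RPM at 2-3 h (median 0), while the gene TSC ranged from 0 to 31.5 RPM at 8-9 h (median 2.04). The fitted share fell from 62.0% at 0-1 h to 0.152% at 12-13 h (adjusted p = 5.56e-05). The low value is the limit set in the fit, in a window with 0 reads of the member and 2 of the gene TSC. CG3505 has a member 417 bp upstream (3R:10482713-10482745) with 161 reads against 118, and at most 11.4 RPM (on 5 reads) against 6.56 RPM. The mean hours were 10.9 and 16.3 h (adjusted p = 9.12e-05). These upstream members had an earlier mean hour than the gene's TSC. The member 500 bp upstream of tara, a trithorax group gene, went the other way, with 96 reads against 99, mean hours of 17.2 and 9.30 h, r of -0.23 and adjusted p = 1.15e-05.

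Among downstream same-strand members, that of 14-3-3epsilon, an adaptor protein gene, was the strongest (3R:14075212-14075296). It had 264 reads and ranged from 0 to 10.5 RPM (median 3.85, the highest on 3 reads), and its neighbor, 0.268% of the gene's reads, from 0 to 21.0 RPM (median 5.73). Its mean hour of 13.7 h was later than the 11.0 h of the neighbor, and its share passed the test (adjusted p = 0.0147) except without 20-21 h (0.0744). The member of apolpp, a lipid carrier gene, ranged from 0 to 10.5 RPM (median 2.57, the highest on 3 reads) against 0 to 3.37 RPM (median 1.28). It was earlier, at 9.66 against 14.6 h (adjusted p = 0.00197). The member of Diap1, an inhibitor of apoptosis, lies at the limit of 500 bp, had 234 reads against 50, and its share was not called (adjusted p = 0.767). The 4 same-strand members beside muscle genes, in Mhc (2), Mlc2 and Tm1, had 13 to 44 reads and could not be compared.

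The members were also tested for change over time by themselves. A mean of 1 RPM was reached by 261 members, while 780 fell below it. Of the 261, 221 showed time dependence in limma (84.7%), against 90.2% of all 15235 TSCs tested, 90.1% of gene TSCs, 93.1% of the other gene-less TSCs and 91% of the neighbors. On the opposite strand these were 214 of 253 (84.6%) and on the same strand 7 of 8 (87.5%). The order of these shares turned with the tool, since edgeR on recovered reads called 90.0% of members against 85.9% of all TSCs and DESeq2 88.9% against 84.0%.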

How the data were processed

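The authors mapped reads with STAR to FlyBase release 5.49, called TSCs on the pooled series and removed those over ribosomal DNA. The deposited values are RPM per TSC, scaled by the authors to the reads in TSCs. Positions (unit: other) come from the deposited BED file of the authors, with starts printed counted from 1. The version of STAR is not given in the sources used here. The deposited table of gene sums and that of aligned profiles were not used. All RPM values (100% within 0.001) were whole multiples of the smallest one of a library, so reads were recovered.

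Places listed under several genes (588) were taken once, under the first name, and stand for 642 further names. Members, gene lists and named members were chosen with earlier results of these data known. Named members were, per strand class, the 6 with the most reads, the 3 with the largest called range of the share (100 reads in each TSC), the 3 highest and 1 lowest r (200 reads in each), up to 4 above their neighbor with at least 25 RPM, and up to 2 per gene list with at least 100 reads. CG2962, CycA at 1-2 h, hkb, Ubx, Act87E, Mhc, vvl, tara, and the further members of CycE, Mef2 and Act57B were named after their values were seen.

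Shares of pair reads were fitted by quasi-binomial regression on a natural spline of 4 df, with dispersions moderated by limma 3.58.1 in R 4.3.3. Fitted shares were limited so that neither TSC fell below 1 read in the total of the pair. Weights for a common overdispersion of 0.0142, estimated from the data, were added to the planned test because on simulated pairs the unweighted fit called 329 of 5723 unchanged pairs. limma on the log2 ratio called 161 of them. The weighted fit called 1 and recovered 0, 2, 13 and 22 of 50 pairs changed 2-, 4-, 8- and 16-fold. Most small changes were thus missed in the simulation. Its overdispersion was on average larger than 0.0142, so false calls and recovery may differ in the real pairs. Time dependence used limma on log2(RPM + 1) with the same spline for TSCs of a mean of at least 1 RPM; on simulated data it recovered 1, 20, 37 and 45 of 50 TSCs with 19 false calls among 15035. All p-values were adjusted over every TSC or pair tested. edgeR 4.0.16 and DESeq2 1.42.0 on recovered reads were alternatives. Gene symbols came from a reference table, which matched 792 of 842 neighbor genes. No sequence is printed because no genome of the files' build was used here.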

Additional observations from a re-analysis of the deposited data

How the results depend on the processing

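No paired analysis was possible because each window holds 1 library. The count of opposite-strand members with a changing share was 127 in the reported test and moved to 81 of 151 with at least 100 reads in each TSC, 216 of 664 with at least 20, and 7 of 15 with all libraries thinned to the shallowest, where no same-strand pair kept 50 reads; each tests another number of pairs. Without 1 library it ran from 98 (without 1-2 h) to 129. Fits with 3 or 6 df, without the 4 shallowest libraries, with gaps up to 250 bp or with the nearest gene TSC of that strand gave 88 to 127. limma on the log2 ratio gave 170 and the unweighted fit, added after the data were seen, 181; 106 and 124 of the 127 were among them. The same-strand count of 7 moved to 4 of 4 with 100 reads, 12 of 37 with 20 reads, 2 of 3 with gaps up to 250 bp and 12 of 22 with the nearest same-strand gene TSC, and ran from 6 to 8 without 1 library. Time-dependent members numbered 221 and moved to 4 of 5 with filterByExpr (90.7% of all TSCs), 125 of 145 where some window reached 10 RPM (93.1% of all) and 575 of 1041 with no filter (55.2%, against 72.9% of all), where different members were tested; pseudocounts of 0.1 or 5, TMM, 6 df, the 19 deeper libraries, edgeR and DESeq2 gave 206 to 235. TMM lowered the share of all TSCs called from 90.2% to 81.4%. The median r of opposite-strand members rose from 0.43 to 0.56 with at least 200 reads in each TSC and to 0.53 without the 4 shallowest libraries. The single same-strand pair with 200 reads in each TSC had a mean hour 2.66 h later in the member, against the median of -2.80 h over 14 pairs. Of the 27 named members tested, the call changed under limma on the log2 ratio in 6, under the unweighted fit in 4 and, thinned, in 1 of 5; the causes were not tested. The member count was 704, 1416 and 959 with gaps up to 250 bp, up to 1000 bp and with distances between centers. Depth limits most members: 679 of 975 on the opposite strand had too few reads, or a neighbor with too few, to compare profiles.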
